A study of Mus musculus with 6 samples.

Results

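The 10 genes described here encode replacement histones of mouse cells, though not all of them. They are the linker histones H1f0 and H1fx, the H3.3 genes H3f3a and H3f3b, the H2A.Z genes H2afz and H2afv, the macroH2A genes H2afy and H2afy2, and the H2A variants H2afx and H2afj. They were chosen by gene symbol, and all 10 were found among the 35869 symbols listed in every library. RNA was sequenced from acute myeloid leukaemia cells of the mouse that a retrovirus carrying MLL-AF9, a human leukaemia fusion oncogene, had transformed. All 6 libraries came from clones with floxed Chaf1b alleles that had also been transduced with CreERT2, a recombinase that is activated by an added ligand. The 3 knockout (KO) libraries were from cells treated with B-estradiol for 48 hours to delete Chaf1b, and the 3 control (WT) libraries were from cells treated with ethanol. Some Chaf1b transcript remained in KO. Ligand and deletion go together in this comparison and cannot be told apart. The sources used here do not say whether replicates were separate clones or cultures, so p-values reflect just the variation among these 6 samples, and that variation may be technical.

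Replication-dependent histones are made in S phase from transcripts that mostly end in a stem-loop without a poly(A) tail. Replacement histones come from separate genes with polyadenylated transcripts, are made throughout the cell cycle and are put into chromatin outside DNA synthesis. CAF-1, of which Chaf1b encodes a subunit, deposits the replication-coupled H3.1 and H3.2 with H4 behind the fork, whereas H3.3 is deposited by HIRA or by DAXX with ATRX. Linker histones bind the nucleosome where DNA enters and leaves it, and H1f0 is known for accumulating in cells that stop dividing and differentiate. The poly(A) libraries sequenced here therefore cover the transcripts of the 10 genes well and those of the replication-dependent genes only in part. H2afx is a special case, since it can also give a transcript with a stem-loop end.

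Expression is given in TPM, a transcript abundance that is corrected for transcript length and scales each library to the same total, so that levels can be compared between genes. The labels state about 120 M reads of 100 bp per sample, but TPM keeps no depth, and the depth behind each value is unknown. Chaf1b, the targeted gene, was at 17.7, 14.4 and 14.2 TPM in KO replicates 1, 2 and 3 and at 48.6, 49.0 and 50.6 TPM in the WT replicates. A library of each group stood apart: Pearson's r of log2(TPM + 1) across the 13575 genes tested reached 0.998 for replicates 2 and 3 of either group. KO replicate 1 had an r of 0.991 to 0.992 with the other KO libraries, and WT replicate 1 an r of 0.984 to 0.986 with the other WT libraries (genes are not independent replicates). KO replicate 1 was also closer to WT, with an r of 0.982 to 0.986 with the WT libraries, against 0.961 to 0.967 for KO replicates 2 and 3. The column header of WT replicate 1 carries the added word replaceQiagen2, which the sources used here do not explain. Without this library 4850 genes differed between KO and WT at a limma adjusted p under 0.05, against 2575 with all 6 libraries. All 10 markers of leukaemic myeloid progenitors that were looked at, among them Kit, Cd34, Spi1, Hoxa9 and Meis1, passed the filter of at least 1 TPM in at least 3 libraries.

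H1fx, H1f0 and H3f3b rose in KO by the largest amounts among these genes, to 118, 3.50 and 2.52 times the WT mean. H3f3a and H2afv rose by less, to 1.23 and 1.28 times. In all, 5 of the 10 genes were called higher at a limma adjusted p under 0.05 and none lower, while 12.9% of all 13575 genes tested were called higher and 6.11% lower (19.0% in either direction). Of all calls, 67.8% were toward higher values without further scaling, 50.9% with median-ratio scaling of the libraries and 43.9% with quantile normalization, and the same 5 genes were called higher under each of these scalings. The KO values lay above the WT values without overlap for 6 of the 10 genes, against 23.4% of all genes, and below them for 1, against 19.5%. The 5 called genes and these 6 include H1fx, which passed the filter on low values only through its KO libraries. Its call is therefore no support for a change of the group. The median difference of the 10 genes was 0.24 on the log2(TPM + 1) scale, against 0.01 for all genes tested. Since these are bulk samples, more RNA per cell and a larger share of cells that express a gene cannot be told apart.

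**Figure D1:**
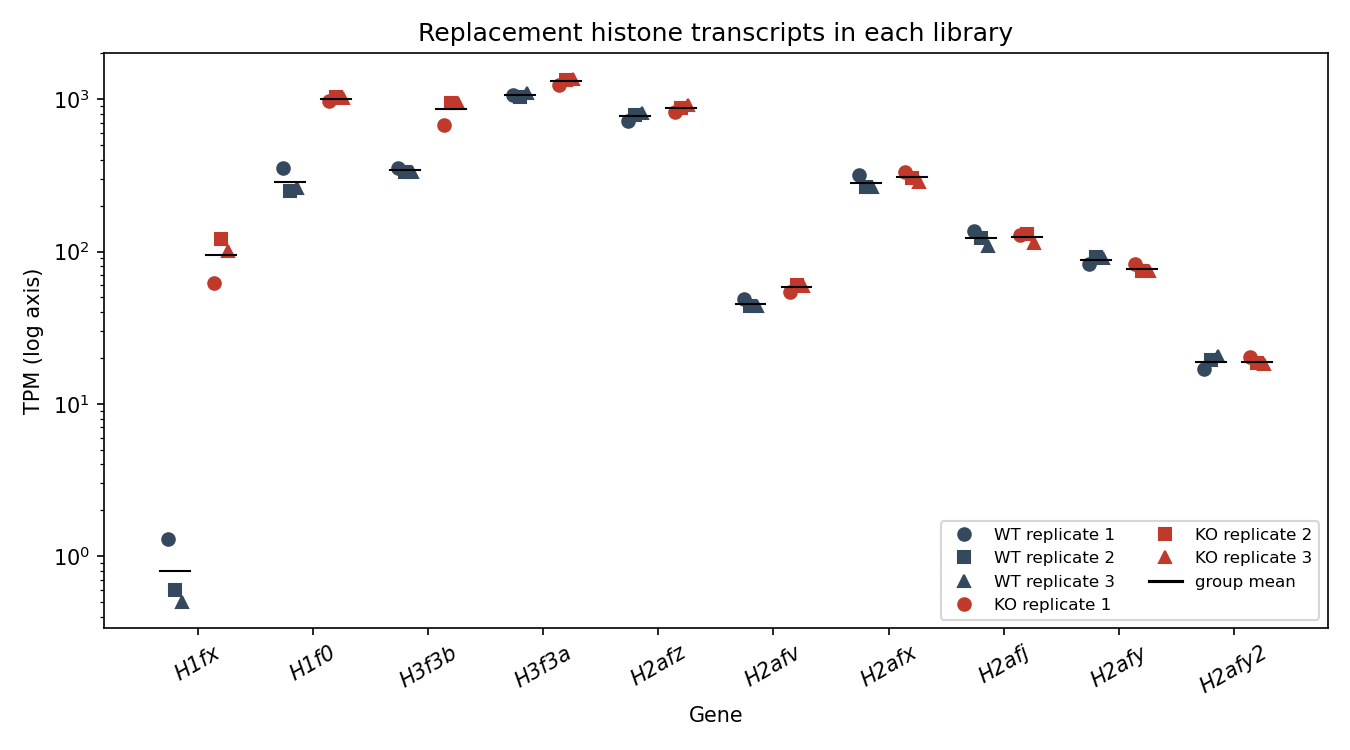
TPM of the 10 replacement histone genes (horizontal axis) in each of the 6 libraries on a logarithmic vertical axis, with WT libraries in dark blue, KO libraries in red, the replicate number as the marker shape and a black line at each group mean. The groups stand far apart for H1fx, H1f0 and H3f3b, whereas the points of H2afx, H2afj and H2afy2 overlap.

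The linker histone H1fx, also called H1.10 or H1x, is a variant distantly related to the other H1 proteins. It was at 62.2, 120.3 and 100.1 TPM in KO replicates 1, 2 and 3 and at 1.3, 0.6 and 0.5 TPM in WT replicates 1, 2 and 3. The transcript was thus close to the limit of the deposited values, which have 1 decimal, in every WT library, and the lowest KO value was 47.8 times the highest WT value. The WT mean was 0.80 ± 0.44 TPM (SD, n = 3) and the KO mean 94.2 ± 29.5 TPM (SD, n = 3), with a difference of 5.70 on the log2(TPM + 1) scale (SE 0.28, 95% interval 5.03 to 6.37, limma adjusted p = 0.0058). The size depends on the pseudocount because WT is so low: the difference was 6.76 with a pseudocount of 0.1, 6.18 with 0.5 and 4.05 with 5, and it was called each time. H1fx passed the filter on low values through its KO libraries, since 2 of the 3 WT libraries were below 1 TPM. Counted from the largest rise, the H1fx difference was rank 5 of the 13575 tested. Within the KO group replicate 1 had 0.52 times the value of replicate 2, and within the WT group replicate 1 was the highest.

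H1f0, the linker histone H1.0, went from the middle of the group to the level of the most abundant variants. Its KO values were 967.6, 1034.6 and 1020.3 TPM in replicates 1, 2 and 3, against 352.6, 250.1 and 262.0 TPM in the WT replicates. All KO values were at least 2.74 times the highest WT value, which belonged to WT replicate 1. The mean rose from 288 ± 56.1 TPM (SD, n = 3) to 1008 ± 35.3 TPM (SD, n = 3), by 1.82 on the log2(TPM + 1) scale (SE 0.13, 95% interval 1.51 to 2.13, limma adjusted p = 0.0058). Among the 2054 genes that averaged at least 100 TPM over the 6 libraries, this was rank 15 from the top. In the WT libraries H1f0 ranked 692 of 13575 genes by mean TPM, and in the KO libraries it ranked 129.

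H1fx and H1f0 are single-exon genes on different chromosomes (GENCODE M21 on GRCm38, the assembly of mm10). H1fx lies on chromosome 6 from 87980421 to 87981637 on the minus strand, and H1f0 on chromosome 15 from 79028450 to 79030504 on the plus strand. Their summed level was 353.9, 250.7 and 262.5 TPM in WT replicates 1, 2 and 3 and 1029.8, 1154.9 and 1120.4 TPM in the KO replicates. H1fx made up 0.27 ± 0.09% (SD, n = 3) of this sum in WT and 8.46 ± 2.23% (SD, n = 3) in KO. Even after the rise, H1f0 was therefore the larger contributor in every library.

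The promoter windows of H1fx and H1f0 are shown with those of both H3.3 genes, because these 4 genes include the largest rises and a pair with the same product but unequal changes. Each runs from 250 bases before to 50 bases after a RefSeq transcription start on GRCm38.p6, 5′ to 3′ on the gene's strand. Capitals mark CCAAT or its reverse complement ATTGG, and TATAAA or its reverse complement TTTATA. The windows are chr6:87981433-87981732 (H1fx, minus strand), chr15:79027962-79028261 (H1f0, plus strand), chr11:116024455-116024754 (H3f3b, minus strand) and chr1:180813556-180813855 (H3f3a, minus strand).
H1fx: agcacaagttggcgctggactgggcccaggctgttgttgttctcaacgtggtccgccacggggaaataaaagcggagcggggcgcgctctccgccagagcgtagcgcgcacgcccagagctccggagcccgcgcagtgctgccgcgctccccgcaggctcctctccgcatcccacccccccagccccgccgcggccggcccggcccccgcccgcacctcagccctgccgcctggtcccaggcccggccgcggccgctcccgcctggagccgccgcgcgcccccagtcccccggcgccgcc
H1f0: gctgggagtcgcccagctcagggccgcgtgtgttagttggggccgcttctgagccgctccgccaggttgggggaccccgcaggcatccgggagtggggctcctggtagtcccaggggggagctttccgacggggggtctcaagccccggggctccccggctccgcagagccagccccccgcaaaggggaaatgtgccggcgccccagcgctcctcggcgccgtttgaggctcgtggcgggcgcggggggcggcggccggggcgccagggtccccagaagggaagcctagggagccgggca
H3f3b: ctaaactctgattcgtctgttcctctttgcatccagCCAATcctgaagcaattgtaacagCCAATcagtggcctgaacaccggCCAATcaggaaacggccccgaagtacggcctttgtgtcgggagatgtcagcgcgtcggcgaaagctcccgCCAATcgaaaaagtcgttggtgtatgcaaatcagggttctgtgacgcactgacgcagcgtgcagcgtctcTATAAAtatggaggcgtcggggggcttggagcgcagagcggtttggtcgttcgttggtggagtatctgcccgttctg
H3f3a: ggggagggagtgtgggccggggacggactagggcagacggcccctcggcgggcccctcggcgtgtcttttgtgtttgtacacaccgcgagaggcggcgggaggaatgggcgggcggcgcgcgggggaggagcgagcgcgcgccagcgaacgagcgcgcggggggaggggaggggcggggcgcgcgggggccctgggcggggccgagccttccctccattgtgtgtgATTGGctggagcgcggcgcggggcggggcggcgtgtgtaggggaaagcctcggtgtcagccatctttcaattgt

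A window was found for 9 of the 10 genes, all but H2afx. The H1fx and H1f0 windows were rich in G and C, at 77.7% and 75.0%, which exceeded 97.9% and 96.1% of the 32851 windows in the RefSeq table. Neither held CCAAT or TATAAA on either strand, and each held the GC box GGGCGG (or CCGCCC) 1 time. The H3f3b window lies at a start 1535 bp inside the RefSeq gene, whose 5′ end is at 116026039. Those of H1fx, H1f0 and H3f3a lie at the 5′ end of the RefSeq gene, but GENCODE M21 puts these ends elsewhere, at 87981637, 79028450 and 180813943. The H2afy2, H2afy and H2afv windows lie 740, 76 and 68 bp inside their RefSeq genes. Another start of any of these genes could give other matches. The H3f3b window had a G and C content of 55.0%. It held 4 CCAAT matches, at positions -214, -190, -167 and -97 from the start, and TATAAA at -27. The H3f3a window, with 74.0% G and C, held 1 CCAAT match at -24, 6 GC boxes and no TATAAA, with overlapping GC boxes counted separately. Of all windows, 37.4% held CCAAT at least once and 1.06% at least 4 times, 13.6% held TATAAA, and 35.7% held the GC box at least once and 1.35% at least 6 times. The H2afv window also held 4 CCAAT matches, and those of H2afz and H2afj held 3 each. In these windows, CCAAT matches were present in H3f3a, H3f3b and H2afv, which were called higher, and in H2afz, H2afj and H2afy2, which were not called. They were absent from both linker histone genes, which were called higher, and from H2afy, which was not called.

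**Figure D2:**
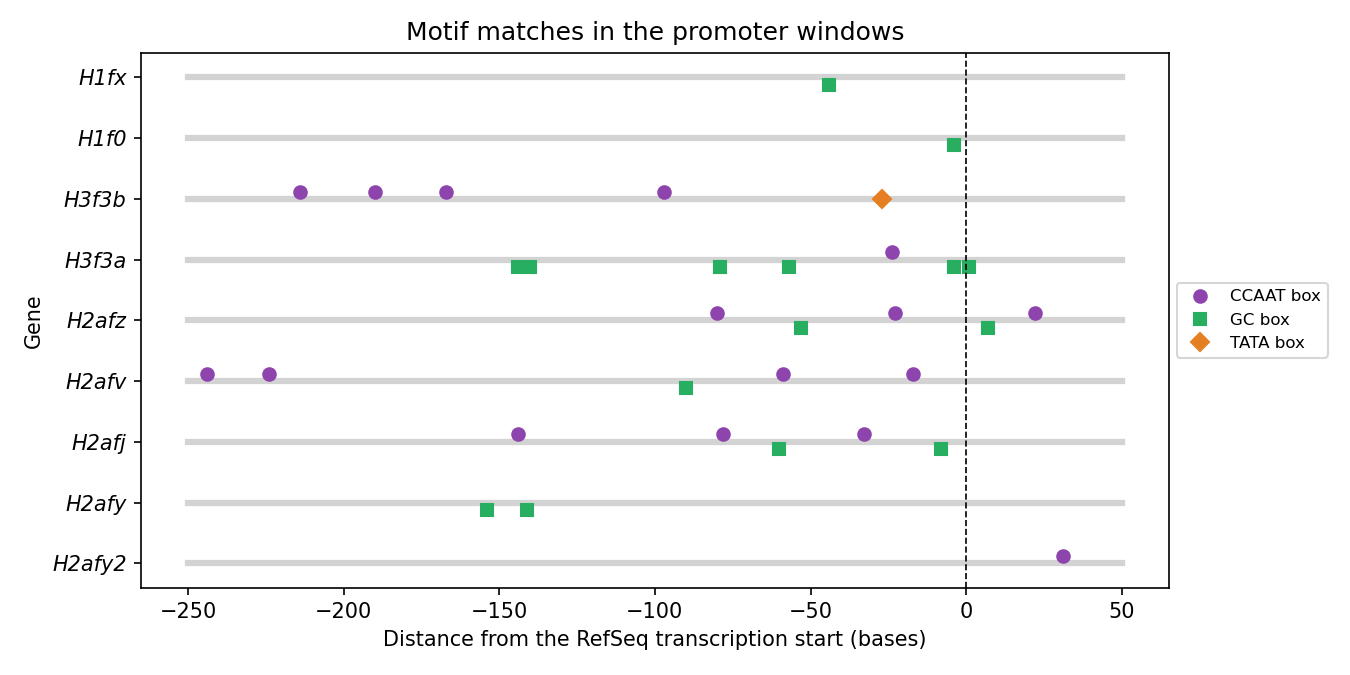
Positions of CCAAT box, GC box and TATA box matches on either strand (markers) in the promoter windows of 9 replacement histone genes (vertical axis), by distance in bases from the RefSeq transcription start (horizontal axis, dashed line at 0). H3f3b has 4 CCAAT matches and the TATA box match at -27, while H1fx and H1f0 each have 1 GC box match.

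H3f3a and H3f3b encode the replacement histone H3.3, which marks active genes and regulatory regions and is also placed at telomeres and silent repeats. H3f3b was at 682.5, 941.1 and 951.4 TPM in KO replicates 1, 2 and 3 and at 354.5, 334.2 and 335.0 TPM in the WT replicates. The groups did not overlap, and KO replicate 1 was again the lowest KO library. The mean rose from 341 ± 11.5 TPM (SD, n = 3) to 858 ± 152 TPM (SD, n = 3), by 1.31 on the log2(TPM + 1) scale (SE 0.13, 95% interval 1.00 to 1.63, limma adjusted p = 0.011). This was rank 23 from the top among the same 2054 abundant genes.

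H3f3a, the more abundant H3.3 gene in every library, had KO values of 1239.0, 1347.0 and 1355.8 TPM and WT values of 1063.9, 1034.0 and 1095.7 TPM in replicates 1, 2 and 3. The KO libraries were all above the WT libraries, by a smaller step than for H3f3b. The mean rose from 1065 ± 30.9 TPM (SD, n = 3) to 1314 ± 65.0 TPM (SD, n = 3), by 0.30 on the log2(TPM + 1) scale (SE 0.05, 95% interval 0.18 to 0.42, limma adjusted p = 0.017). The intervals of both genes' differences do not meet, although the difference between the genes was not itself tested. Together they were listed at 1406 ± 33.1 TPM (SD, n = 3) in WT and 2172 ± 217 TPM (SD, n = 3) in KO, 1.55 times as much. H3f3b supplied 25.0%, 24.4% and 23.4% of this sum in WT replicates 1, 2 and 3 and 35.5%, 41.1% and 41.2% in the KO replicates.

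The H3f3a value is uncertain in part. When the longest transcript of each of the 10 genes was aligned to all GENCODE M21 transcripts, 7 processed pseudogenes matched H3f3a over at least 100 bp, the read length, with at least 98% identity. Of these, 2 are listed in the files: H3f3c, which averaged 82.7 ± 1.39 TPM (SD, n = 3) in WT against 98.8 ± 6.12 TPM (SD, n = 3) in KO, and Gm12657, which averaged 31.8 ± 0.84 against 39.8 ± 3.55 TPM. Both moved in the direction of H3f3a, by 0.25 and 0.31 on the log2(TPM + 1) scale (limma adjusted p = 0.034 and 0.036), and reads may have been divided between the copies. H3f3b had 1 match, of 179 bp, to Gm43584, and H1fx, H1f0, H2afx, H2afv, H2afj and both macroH2A genes had none. H3f3a is on chromosome 1 from 180800832 to 180813943, and H3f3b on chromosome 11 from 116021912 to 116027962, both on the minus strand.

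**Figure D3:**
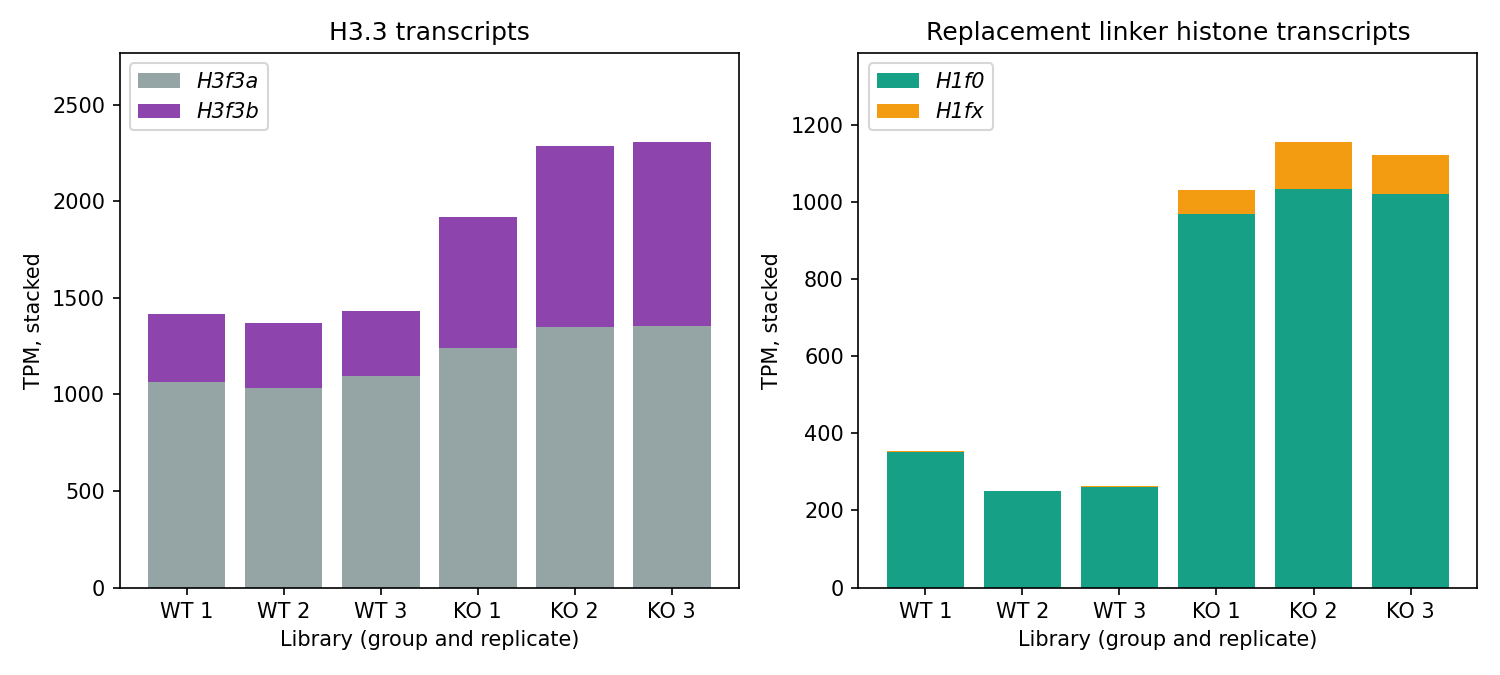
Stacked TPM (vertical axis) of the H3.3 genes H3f3a and H3f3b (left) and of the linker histone genes H1f0 and H1fx (right) in each WT and KO library (horizontal axis). The H3f3b share grows from 23.4 to 25.0% in WT to 35.5 to 41.2% in KO, and H1fx is visible in the KO bars alone, at 62.2 to 120.3 TPM.

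The H2A.Z genes encode a variant found at promoters next to the transcription start, in the nucleosomes that flank it. H2afv (H2A.Z.2) was at 54.0, 60.6 and 59.7 TPM in KO replicates 1, 2 and 3 and at 48.9, 43.6 and 43.6 TPM in the WT replicates. No WT value reached the KO range, although WT replicate 1 and KO replicate 1 lay only 5.10 TPM apart. It rose by 0.35 on the log2(TPM + 1) scale (SE 0.07, 95% interval 0.18 to 0.53, limma adjusted p = 0.027). H2afz (H2A.Z.1), the main source of H2A.Z transcripts, was at 827.0, 874.5 and 919.4 TPM in KO, against 718.5, 784.9 and 808.6 TPM in WT. These ranges did not overlap either, but the difference of 0.18 did not pass the test (SE 0.06, 95% interval 0.03 to 0.33, limma adjusted p = 0.086). Its value is also uncertain, because the processed pseudogene Gm8203 matches 387 bp of it exactly and is listed at 472 ± 40.6 TPM (SD, n = 3) in WT and 566 ± 33.5 TPM (SD, n = 3) in KO. Of the summed level of H2afz and H2afv, without Gm8203, H2afv made up 6.24 ± 0.21% (SD, n = 3) in KO and 5.58 ± 0.69% (SD, n = 3) in WT. These shares overlapped, with 6.37% in WT replicate 1 against 6.13% and 6.10% in KO replicates 1 and 3.

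The macroH2A genes encode H2A variants with a large globular domain, which are enriched in silent chromatin. H2afy (macroH2A1) was the 1 gene of the 10 whose KO values all lay below the WT values, at 82.4, 74.0 and 74.7 TPM in KO replicates 1, 2 and 3 and 83.0, 91.6 and 90.0 TPM in the WT replicates. KO replicate 1 and WT replicate 1 were only 0.60 TPM apart. The difference of -0.19 on the log2(TPM + 1) scale did not pass the test (SE 0.07, 95% interval -0.35 to -0.04, limma adjusted p = 0.081). It was called lower without WT replicate 1 (-0.24, limma adjusted p = 0.035), without KO replicate 1 (-0.24, 0.037), with both left out and with median-ratio scaling. More of all genes were called in these settings too, at 35.7%, 27.1%, 55.8% and 24.2% in this order, against 19.0% in the main comparison. H2afy2 (macroH2A2) had the same mean of 18.9 TPM in both groups, with an SD of 1.10 in KO and 1.98 in WT (n = 3 each), and a 95% interval of the difference from -0.21 to 0.22.

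H2afx encodes H2A.X, whose phosphorylation marks DNA double-strand breaks, and H2afj encodes H2A.J, a variant close to canonical H2A. H2afx was at 333.1, 304.1 and 287.5 TPM in KO replicates 1, 2 and 3 and at 318.4, 264.0 and 264.4 TPM in the WT replicates. The highest WT value exceeded 2 of the 3 KO values, and replicate 1 was the highest of each group. Its difference was 0.13 on the log2(TPM + 1) scale (95% interval -0.10 to 0.35, limma adjusted p = 0.35). H2afj was at 128.5, 131.3 and 114.2 TPM in KO, against 137.0, 121.8 and 108.6 TPM in WT, with a difference of 0.03 (95% interval -0.21 to 0.27, limma adjusted p = 0.86). The intervals of H2afx and H2afj leave room for changes as large as those seen for H3f3a or, for H2afj, nearly so.

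**Figure D4:**
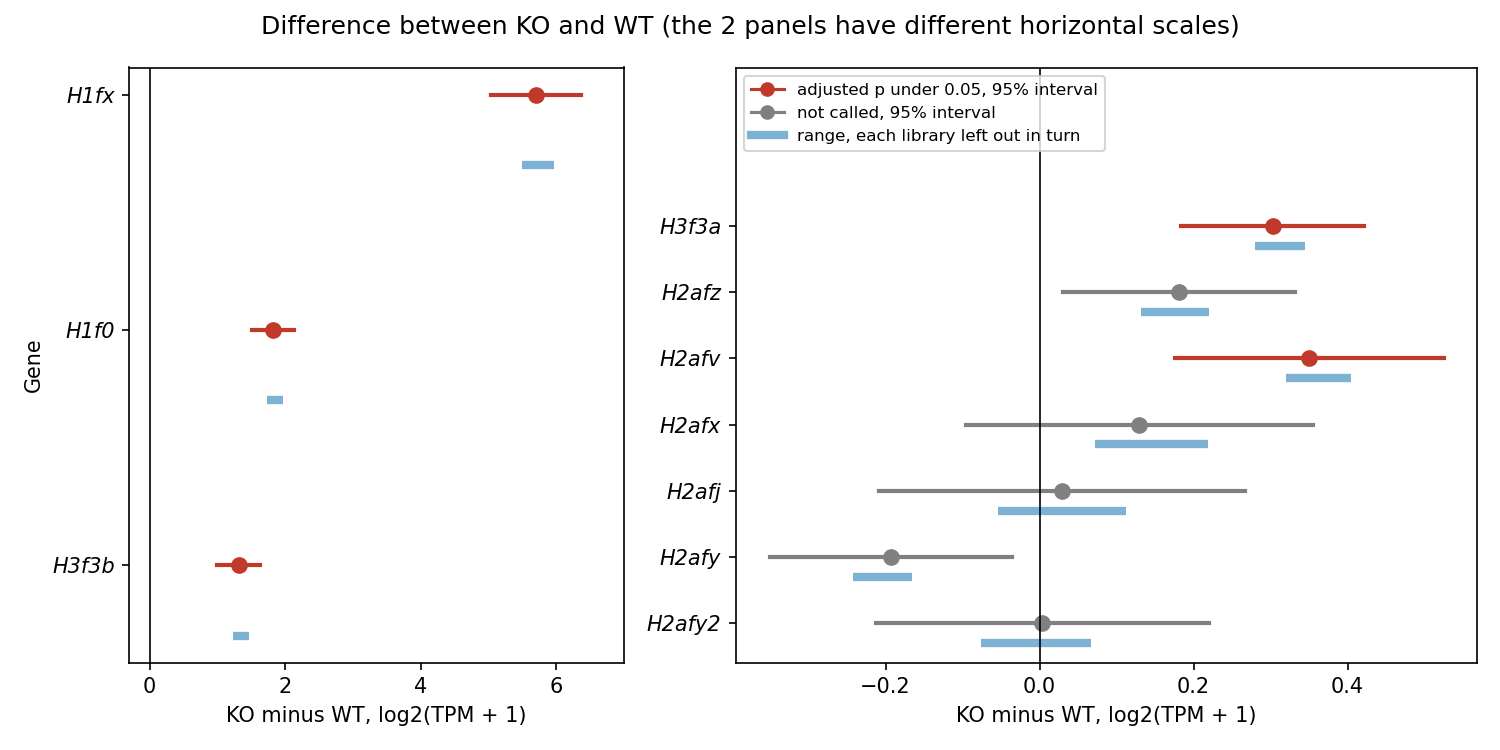
Difference between KO and WT on the log2(TPM + 1) scale (horizontal axes, different in the 2 panels) for each replacement histone gene, with 95% limma intervals, red where the adjusted p was under 0.05 and grey where it was not. Blue bars give the range when each library is left out in turn; that of H1fx runs from 5.50 to 5.97 and those of H2afj and H2afy2 cross 0.

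In the same annotation H2afz lies on chromosome 3 (137864487 to 137866922), H2afv on chromosome 11 (6427229 to 6444443), H2afy on chromosome 13 (56073619 to 56136361), H2afy2 on chromosome 10 (61738665 to 61784147), H2afx on chromosome 9 (44334694 to 44336077) and H2afj on chromosome 6 (136808244 to 136810074).

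The order of the 10 genes by level followed these differences. In WT it ran from H3f3a and H2afz through H3f3b, H1f0, H2afx, H2afj, H2afy, H2afv and H2afy2 down to H1fx. The WT ranges of H3f3b and H1f0, and of H1f0 and H2afx, did not differ beyond their spread, since they overlapped. In KO it ran from H3f3a, H1f0, H2afz and H3f3b through H2afx, H2afj, H1fx, H2afy and H2afv to H2afy2. The KO ranges of H2afz and H3f3b overlapped, as did those of H2afj and H1fx and of H1fx and H2afy. Both orders leave out the near-identical copies, so the places of H3f3a and H2afz at the top are uncertain. Gm8203, which matches H2afz, was listed at 472 TPM in WT and 566 TPM in KO. The summed level of all 10 genes was 2944.1 to 3094.9 TPM in WT and 4396.5 to 4905.9 TPM in KO, and H1f0 made up 9.51 ± 1.63% (SD, n = 3) of it in WT and 21.3 ± 0.62% (SD, n = 3) in KO.

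Exact two-sided permutation tests of the TPM values gave p = 0.1, the smallest that 3 against 3 libraries allow, for the 7 genes without overlap (H1fx, H1f0, H3f3a, H3f3b, H2afz, H2afv and H2afy). They gave 0.3 for H2afx, 0.9 for H2afj and 1 for H2afy2. Single libraries decided some limma calls. Without KO replicate 3 limma called none of the 13575 genes (3381 had an unadjusted p under 0.05, among them 5 of the 10), and the adjusted p was 0.070 for H1fx, 0.077 for H1f0 and 0.090 for H3f3b. H1fx and H1f0 were called without each of the other 5 libraries. H3f3b was not called without WT replicate 2 (0.056) or WT replicate 3 (0.057) either. H3f3a and H2afv were called without KO replicate 1 or WT replicate 1 only, with adjusted p from 0.064 to 0.126 without another library. Fewer than 1% of all genes were called without KO replicate 2, WT replicate 2 or WT replicate 3 (0.80%, 0.18% and 0.11%). Without KO replicate 1 and WT replicate 1 together, H1fx, H1f0 and H3f3b differed by 6.16, 2.00 and 1.50 on the log2(TPM + 1) scale.

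Genes next to the 10 loci were compared by a fixed rule, the nearest tested gene on each side within 200 kb. Of 17 such neighbours, 1 was called higher and 4 lower, beside 12.9% and 6.11% of all genes tested. H1fx is flanked by Hmces at 43792 bp, with 19.4 ± 0.84 TPM (SD, n = 3) in WT against 19.2 ± 1.25 TPM (SD, n = 3) in KO, and by Rab7 at 17469 bp, with 112 ± 0.76 against 115 ± 2.05 TPM. Neither was called, with differences of -0.02 and 0.04 on the log2(TPM + 1) scale (limma adjusted p = 0.86 and 0.47). The predicted antisense gene Gm5577 overlaps H1fx on the other strand and was listed at 0.2 to 0.4 TPM in KO and 0.0 to 0.1 TPM in WT. Gcat, a mitochondrial enzyme gene of threonine breakdown that begins 370 bp after the end of H1f0, fell by 0.42 on the log2(TPM + 1) scale (limma adjusted p = 0.023), from 74.0 ± 6.03 to 55.1 ± 3.68 TPM. Gm10865, on the other side of H1f0, averaged 58.2 TPM in WT against 59.0 TPM in KO (0.89). Galk1 and Unk, which flank H3f3b, differed by -0.61 and -0.13 and were not called (0.12 and 0.22). None of the 6 neighbours of H1fx, H1f0 and H3f3b was called higher, but 6 genes are too few to compare with the share of 12.9%.

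**Figure D5:**
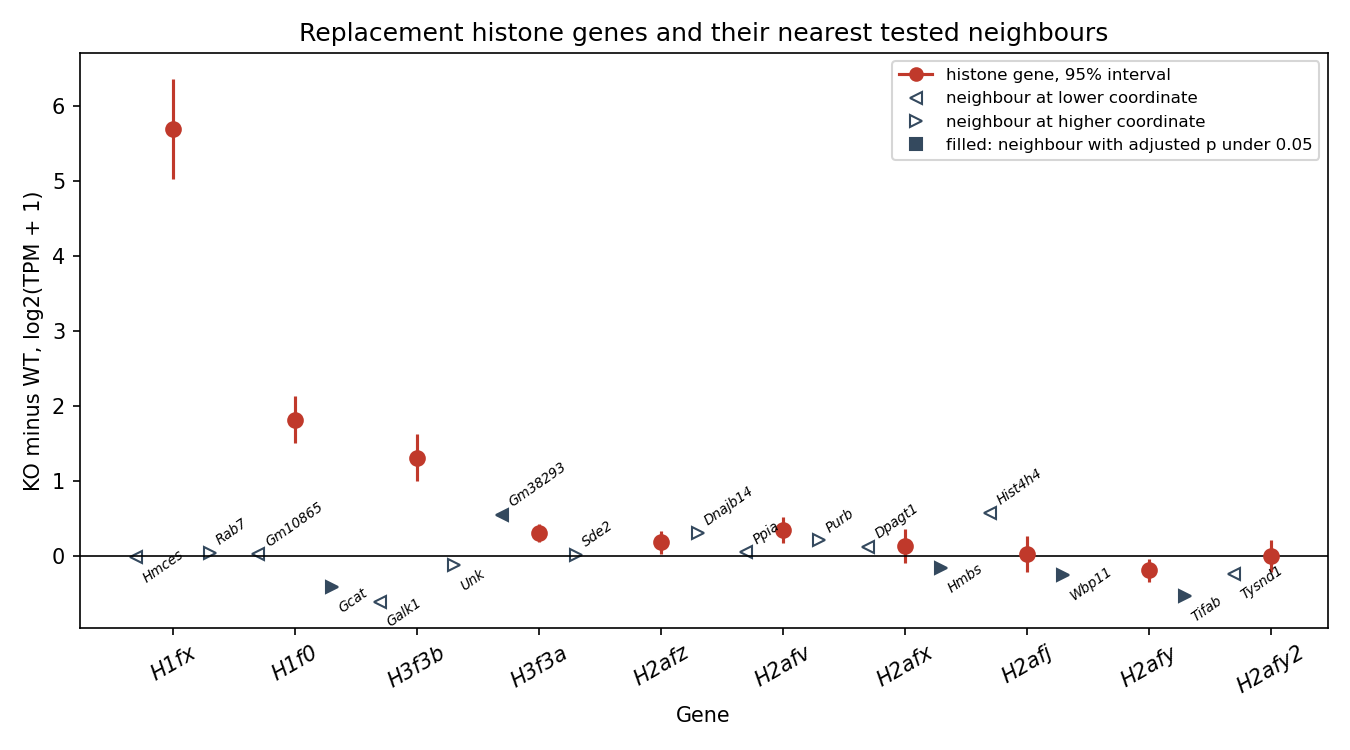
Difference between KO and WT on the log2(TPM + 1) scale (vertical axis) of each replacement histone gene (red, with 95% limma interval) and of its nearest tested neighbour at lower (left-pointing) and higher (right-pointing) coordinates, filled where the neighbour's adjusted p was under 0.05. The neighbours of H1fx lie at -0.02 and 0.04, beside 5.70 for H1fx.

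The factors that place or remove these variants were compared from lists, beside 12.9% of all genes tested called higher and 6.11% lower. Counts in lists this short are a description and cannot be told apart from these shares. Of 7 H3.3 deposition factors (Hira, Ubn1, Ubn2, Cabin1, Asf1a, Daxx and Atrx), none was called by limma in either direction, and their median difference was 0.10 on the log2(TPM + 1) scale. Ubn1, a subunit of the HIRA complex, averaged 18.9 ± 0.95 TPM (SD, n = 3) in WT against 21.6 ± 0.70 TPM (SD, n = 3) in KO (limma adjusted p = 0.072), and Hira itself 15.6 ± 0.67 against 14.2 ± 0.87 TPM (0.20). Of 11 H2A.Z factors, 1 was called lower: Ruvbl2, an ATPase shared by several remodelling complexes, fell from 147 ± 5.46 to 112 ± 14.0 TPM (limma adjusted p = 0.033). Its partner Ruvbl1 averaged 270 ± 27.3 TPM in WT against 209 ± 22.4 TPM in KO (0.053). The FACT subunits, which handle H2A-H2B and H2A.X, were both short of a call, as Ssrp1 differed by -0.23 and Supt16 by -0.21 (0.070 and 0.11). Of 5 chaperones of linker histones and of H2A-H2B (Nasp, Set, Tspyl1, Nap1l1 and Nap1l4), none was called, with a median difference of -0.17.

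Other histone genes were compared on the same libraries, in which 12.9% of all genes tested were called higher and 6.11% lower. Of the 9 listed further linker histones, 5 passed the filter, and 2 of these rose. Hist1h1c (H1.2), the replication-dependent H1 gene with the highest level here, was at 47.7, 78.6 and 66.5 TPM in KO replicates 1, 2 and 3 and at 41.1, 20.5 and 20.3 TPM in the WT replicates (difference 1.25, limma adjusted p = 0.041). Hist1h1a rose from 2.13 ± 0.21 to 4.13 ± 0.50 TPM (SD, n = 3; adjusted p = 0.015). Hist1h1b, Hist1h1d and Hist1h1e stayed between 2.8 and 7.4 TPM in all libraries and were not called. Core histone genes were taken by symbol, as those starting with Hist1h2, Hist1h3, Hist1h4, Hist2h, Hist3h or Hist4h. Most are replication-dependent, but they include Hist1h2ba and Hist1h2aa, also listed as replacement variants, and the pseudogene Hist3h2bb-ps. Of these 63 genes, 57 were tested, 6 were called higher and none lower, with a median difference of 0.05. Their summed level was 420.6 to 461.9 TPM in KO and 344.4 to 401.3 TPM in WT. Hist3h2ba went from 0.1, 0.0 and 0.0 TPM in WT to 3.5, 9.2 and 8.2 TPM in KO replicates 1, 2 and 3. It is 1 of those 6 and passed the filter only through its KO libraries, so its call is no support for a change of the list. Cenpa, the centromeric H3 variant, averaged 52.4 ± 1.05 TPM (SD, n = 3) in WT against 56.5 ± 0.17 TPM (SD, n = 3) in KO (limma adjusted p = 0.12). H2A.B genes, which are testis variants, were listed at 0 to 0.1 TPM.

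Replication and cell type markers were set beside these results, again with 12.9% of all genes tested called higher and 6.11% lower. Of 22 S phase genes, Tk1 was called higher and Cdt1 lower, the median difference was -0.07, and the summed level was 4103.0 to 4209.4 TPM in KO and 3999.7 to 4434.3 TPM in WT. The 10 progenitor markers summed to 10436.6 to 13729.1 TPM in KO and 6903.2 to 7618.0 TPM in WT, with 4 called higher and 1 lower. The 4 were the granule protein genes Mpo, Elane, Prtn3 and Ctsg, which made up most of the sum. Hoxa9 was the 1 called lower, from 213 ± 8.47 TPM (SD, n = 3) in WT to 174 ± 11.2 TPM (SD, n = 3) in KO. Of the 5 not called, Cd34 lay below WT without overlap, Kit and Meis1 above it, and Ptprc and Spi1 overlapped. Of 13 late granulocyte markers 11 were tested and 7 called higher, among them S100a8 and S100a9, and none was at 0 in all libraries. The other 4 overlapped between the groups, since WT replicate 1 was above every KO library for Ly6g (62.0 TPM), Ngp (109.5 TPM) and Mmp9 (14.9 TPM) and above 2 of them for Cxcr2 (21.4 TPM), and Mmp9 had the lower mean in KO (1.77 against 5.57 TPM). The summed level of the list was 690.6, 1572.4 and 1400.7 TPM in KO replicates 1, 2 and 3 and 482.0, 119.8 and 151.6 TPM in the WT replicates. Chil3 and Olfm4 of this list, Pf4 of the megakaryocyte list, Cd79a of the B cell list and Col1a1 of the stromal list were called higher but below 1 TPM in all WT libraries, so they passed the filter only through KO. KO replicate 1 had the lowest and WT replicate 1 the highest late granulocyte sum of its group. The same order was seen for H1fx, H1f0, H3f3b and H2afv and for the monocyte, erythroid, megakaryocyte and stromal sums. It was not seen for the progenitor, B cell or T and NK cell sums. Single genes made up most of some sums, as values of KO replicate 1 show. Ly6c2 was 1158.4 of the 1308.5 TPM of the monocyte sum, and Pecam1 63.4 of the 67.0 TPM of the stromal sum. Cd79b was 25.5 of the 26.5 TPM of the B cell sum. The order of such a sum need not hold for the other genes of its list. The sum of 8 monocyte and macrophage markers was 1308.5 to 1613.9 TPM in KO and 1086.9 to 1195.7 TPM in WT, with 3 of 6 tested called higher and none at 0 in all libraries. Sums were 16.7 to 24.1 TPM in KO and 9.9 to 15.1 TPM in WT for 7 erythroid markers (2 of 4 tested called higher), and 24.6 to 51.5 and 7.2 to 14.5 TPM for 5 megakaryocyte markers (2 of 3). They were 26.5 to 32.0 and 17.0 to 20.7 TPM for 4 B cell markers (2 of 2, with Ms4a1 at 0). For 6 stromal and endothelial markers they were 67.0 to 72.4 and 62.3 to 80.2 TPM (1 of 3, with Kdr at 0). The 6 T and NK cell markers summed to at most 1.2 TPM in any library, with Cd4, Cd8a and Ncr1 at 0. The part of changed cell maturation or composition in the histone differences was not tested.

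The genes whose values were most like those of H1fx over the 6 libraries were Clec3a, Sdr42e1, Fam167b, Csn2 and Btg2, with Pearson's r of log2(TPM + 1) from 0.995 to 0.999 among 8931 named genes that averaged at least 5 TPM. Within the replacement histones r with H1fx was 0.992 for H1f0, 0.989 for H3f3b, 0.969 for H3f3a and 0.959 for H2afv. The 6 libraries fall into the 2 groups, so these values mostly restate the difference between KO and WT and are given as a description.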

How the data were processed

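Poly(A) RNA of 3 KO and 3 WT libraries was sequenced. The submitters' processing notes name STAR 2.6.1e, featureCounts 1.6.2, cutadapt 1.9.1, Trim Galore 0.4.2 and the mm10 build. The authors deposited 1 TPM value for each gene symbol, rounded to 1 decimal. Which annotation and strand setting were used, and how counts became TPM, is not stated in what was used here. Because TPM has a fixed total, other genes fall when abundant transcripts increase, and it keeps no depth, so counting error is unknown.

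The filter kept the 13575 genes that reached 1 TPM in 3 or more libraries and left out 22294. KO and WT were compared on log2(TPM + 1) with limma 3.58.1 in R 4.3.3 (two-sided, a trend in eBayes, no term besides genotype, Benjamini-Hochberg over all kept genes). This scale understates changes of weakly expressed genes. Single genes were also compared with exact permutation tests (SciPy 1.17.1). Near-identical copies were sought with BLAST 2.17.0. Gene positions are from GENCODE M21, and promoter windows are from RefSeq (GRCm38.p6), matched through symbols or unique synonyms.

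The 10 genes and all lists were chosen with earlier results of these data known. Named by rule were the 10 genes, up to 4 genes of each list with the smallest p, neighbours, overlapping genes, and the 5 genes most like H1fx; some of these are not reported here. Linker histones, deposition factors, H2afb genes and markers outside this rule, and Gm8203, Gm12657 and Gm43584, were named after their values were seen. Same-numbered KO and WT libraries did not deviate together. No library was a duplicate, since identical TPM occurred for at most 8.48% of the genes in any pair of libraries. Alternatives were other pseudocounts, filters and scalings, no trend, a replicate block and leaving out libraries.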

Additional observations from a re-analysis of the deposited data

How the results depend on the processing

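The depth behind the TPM values is unknown, and 3 libraries a group, with 1 of each standing apart, limit every comparison here. The difference kept its direction for 8 of the 10 genes under all 16 alternatives. H2afy2 turned to -0.033 with median-ratio scaling, -0.050 with quantile normalization, -0.12 without both replicates 1 and, with 1 library left out, ranged from -0.076 (WT replicate 1) to 0.067, below 0 also without KO replicate 1 (-0.042). H2afj turned to -0.0087 with median-ratio scaling and ranged from -0.054 (WT replicate 3) to 0.11 with 1 library left out, below 0 also for KO replicate 2 (-0.0092); neither gene was called under any of the 16.

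Of all genes, 2575 were called with all libraries, 525 without the filter on low values, where 35869 were tested, 1578 at a mean of at least 5 TPM, and 0 to 4850 with 1 library left out. The number was 7569 without KO replicate 1 and WT replicate 1 together. Of the 10 genes, 5 were called higher in the main comparison, 3 without the filter, and 0 to 5 with 1 library left out; the number called lower was 0 to 1, and 1 with median-ratio scaling or without both replicates 1 (H2afy each time). Without both, H2afx and H2afz were called higher too, while 55.8% of all genes were called. With a replicate block 333 genes were called, 3 of them among the 10 (H1fx, H1f0 and H3f3b). The numbers may not pair the libraries: same-numbered KO and WT libraries had correlations of their deviations of -0.20, -0.15 and -0.16, and no library correlated best with its own number. H1fx, H1f0 and H3f3b were called under 15, 15 and 13 of the 16 alternatives, and H3f3a and H2afv under 10 each. The cause of these differences was not tested.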
